A study of Mus musculus with 16 samples.

Results

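The strain effect shared by colon and ileum was measured as the difference between mice carrying Δchat *Bifidobacterium breve*, a strain that lacks acetylcholine production, and mice carrying the wild-type (WT) strain, averaged over both gut regions. The host mice were wild-type in genotype, had been reared germ-free and had been mono-colonized for 5 weeks, so that every mouse carried a single bacterial species. Lamina propria immune cells, which lie beneath the gut epithelium, were isolated on a Percoll gradient of 40% and 80%, and poly(A) RNA was sequenced in bulk. The comparison used all 16 of the 16 libraries. Colon and ileum libraries with the same strain and number were taken as the same mouse, giving 4 Δchat mice and 4 WT mice. Mice are numbered by the replicate number in the labels; the library names of the WT mice run from 2 to 5 in the same order. For each gene, log2 CPM (the count scaled to a library of 1 M, where M is mega) was averaged over the colon and the ileum library of the same mouse, and the 4 Δchat mice were compared with the 4 WT mice. Fold changes below are on the log2 scale, Δchat over WT, with their standard error. Genes were called at an adjusted p below 0.05 (limma with Benjamini-Hochberg adjustment over the 15198 genes tested), and every adjusted p below is from that test.

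Acetylcholine is best known as a neurotransmitter, and immune cells, epithelium and enteric neurons carry receptors for it. The lamina propria holds the largest part of the body's plasma cells, which secrete IgA into the gut lumen. A plasma cell loads its endoplasmic reticulum (ER) with antibody chains, and the unfolded protein response, driven by the factor XBP1, keeps the chaperones and glycan enzymes of the ER at the level that this load needs. Germ-free animals have few such cells, and colonization brings them in.

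Library totals ran from 15.9 to 23.6 M estimated counts. The leukocyte marker *Ptprc* was found at 588 to 1300 CPM in every library, and *Igha*, *Cd79a* and *Csf1r* marked plasma cells, B cells and macrophages. Markers of other cells were also present: *Col1a1* of stroma at 234 to 1810 CPM, *Pecam1* of endothelium at 495 to 1130 CPM and *Epcam* of epithelium at 12.5 to 259 CPM, the last highest in the colon library of Δchat mouse 3. The summed level of 26 epithelial markers was 421 to 5840 CPM in colon Δchat libraries and 143 to 347 CPM in colon WT libraries. In ileum it was 282 to 1630 CPM in Δchat libraries and 187 to 888 CPM in WT libraries, and the groups overlapped. Of the 25 epithelial markers tested, 24 had a positive fold change in both tissues, against 29.3% of all genes. On the higher side 18 had an unadjusted p below 0.05, against 8.32% of all genes. None was called. Their median was 1.57, and 1.06 without Δchat mouse 3. *Lgals4*, a lectin of enterocytes, had 1.57 ± 0.49 (adjusted p = 0.209), *Vil1*, which builds microvilli, 1.4 ± 0.47 (adjusted p = 0.229) and *Muc2*, the goblet cell mucin, 1.62 ± 0.61 (adjusted p = 0.275). Because libraries are compared as parts of a whole, in bulk samples fewer cells of a type and less RNA per cell cannot be told apart.

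With both tissues averaged, 17 genes were called, 0.112% of those tested. In Δchat mice 4 rose (0.0263%) and 13 fell (0.0855%). The mouse means of the strains did not overlap for any of the 17, against 9.58% of all genes. Fold changes had the same sign in colon and ileum for 15, against 55% of all genes, and for 9 of them the Δchat libraries stood apart from the WT libraries in each tissue, against 0.717% of all genes. The other 2, *Il1a* and *Alox15*, moved in ileum and are described last. The 17 were called on these same libraries, so the shares above describe the calls and lend them no separate support. By the same test within one tissue, 1 gene was called in colon (0.00658%) and 3 were called in ileum (0.0197%). Within one tissue, 7.21% of all genes had no overlap between the strains in colon and 7.13% in ileum.

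The number of called genes rested on single mice. It was 1 without Δchat mouse 4, WT mouse 1 or WT mouse 4, 6 without WT mouse 3, 29 without Δchat mouse 2 and 92 without Δchat mouse 3. Of the 17 genes, 8 remained called without Δchat mouse 1 and 7 without WT mouse 2. *Iglc2* was the call that remained in every one of these fits. All 17 remained called without Δchat mouse 3, whose colon library held the most epithelial RNA, and 11 remained with the epithelial level as a covariate.

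**Figure D1:**
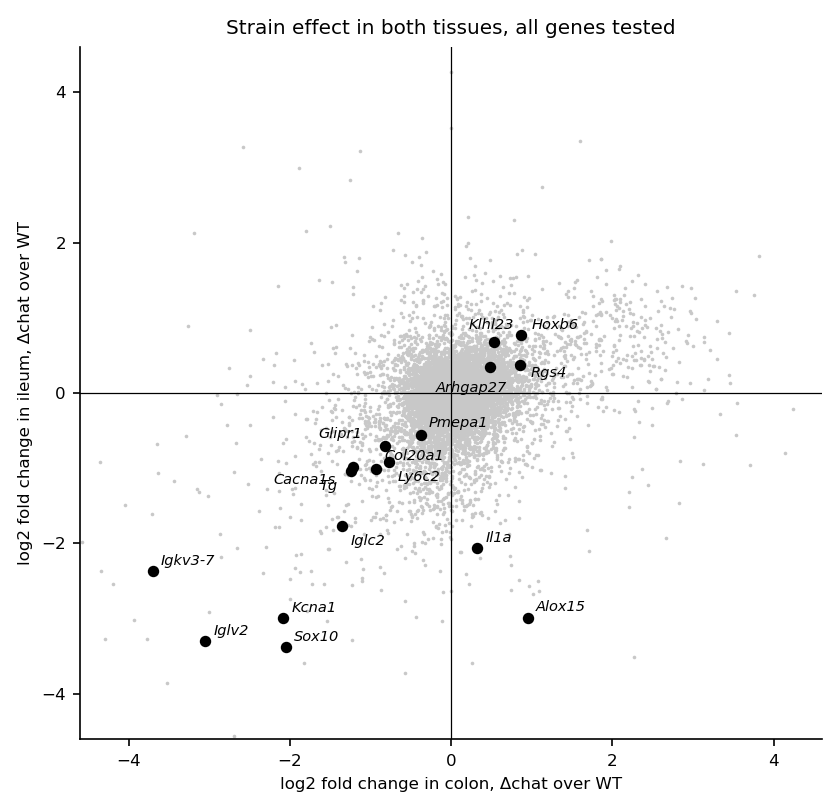
Log2 fold change of each gene tested, Δchat over WT, in colon (x axis) and ileum (y axis). Black points are the 17 genes called with both tissues averaged, of which 15 lie in the lower left or upper right quadrant and *Il1a* and *Alox15* in the lower right; 9 genes lie outside the axes.

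A lambda light chain of antibodies led the comparison. *Iglc2* (ENSMUSG00000076937), a lambda light chain constant region, stood at 120, 162, 93.0 and 83.2 CPM in the 4 colon Δchat libraries, against 370, 255, 197 and 348 CPM in the colon WT libraries. In ileum it stood at 253, 132, 181 and 218 CPM in Δchat libraries, against 495, 958, 739 and 506 CPM in WT libraries. Every Δchat library lay below every WT library of its tissue. *Iglc2* fell by 1.56 ± 0.11 (adjusted p = 0.00254), with -1.36 ± 0.25 in colon and -1.77 ± 0.26 in ileum.

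*Iglv2* (ENSMUSG00000076940), a lambda variable segment, stood at 7.06, 51.6, 9.39 and 5.34 CPM in colon Δchat libraries, against 166, 56.1, 56.7 and 172 CPM in colon WT libraries. In ileum it had 28.6, 27.5, 75.8 and 62.7 CPM in Δchat libraries, against 228, 661, 638 and 366 CPM in WT libraries. It fell by 3.18 ± 0.28 (adjusted p = 0.0118), with no overlap in either tissue, although Δchat mouse 2 came close to WT mice 2 and 3 in colon. *Igkv3-7* (ENSMUSG00000076598), a kappa variable segment, stood at 1.90 to 9.93 CPM in colon Δchat libraries, against 32.3 to 154 CPM in colon WT libraries, and at 11.6 to 31.6 CPM in ileum Δchat libraries, against 45.2 to 188 CPM in ileum WT libraries. It fell by 3.03 ± 0.36 (adjusted p = 0.0445). Both segments are named because they were called; the rule for named genes leaves variable segments out. Antibody genes of one family are near-identical in places, so counts may be split between *Iglc2* and *Iglc3* or between lambda variable segments. *Iglc3* had -1.07 ± 0.46 (adjusted p = 0.325), and the strains overlapped in each tissue. The share given next is of *Iglc2* alone, and a share of *Iglc2* and *Iglc3* together was not tested.

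The share of *Iglc2* among light chain constant region counts was lower in Δchat mice when both tissues were averaged, and the strains overlapped in colon. It averaged 1.23 ± 0.20% in Δchat mice and 1.92 ± 0.37% in WT mice (SD, n = 4 each), with ranges of 0.975 to 1.42% and 1.57 to 2.33% that did not overlap (two-sided exact permutation p = 0.0286, the smallest that 4 against 4 mice allow; Benjamini-Hochberg 0.0477 over 5 shares compared). In colon it was 1.06 to 2.0% in Δchat libraries, against 1.18 to 2.98% in WT libraries, and in ileum 0.836 to 0.965% in Δchat libraries, against 1.62 to 2.74% in WT libraries. Another lambda constant region, *Iglc1*, took 2.11 ± 0.73% in Δchat mice and 2.11 ± 0.80% in WT mice (exact p = 1), and all lambda genes together 4.91 ± 0.85% and 5.99 ± 1.38% of light chain counts in Δchat and in WT mice (exact p = 0.257). These shares were chosen after earlier values had been seen. *Iglc2* had the smallest p of all genes on the same libraries. The exact p of its share restates that the mouse values do not overlap and lends the call no separate support. Mouse means did not overlap for 9.58% of all genes. The 5 shares are also not separate measures, since *Igha* is part of the share of all immunoglobulin genes.

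Immunoglobulin genes as a whole took 7.03 ± 1.05% of all counts in Δchat mice and 11.5 ± 2.73% in WT mice (two-sided exact permutation p = 0.0286, Benjamini-Hochberg 0.0477). *Igha*, the heavy chain of IgA, took 3.69 ± 0.66% in Δchat mice and 6.12 ± 1.53% in WT mice, with the same p. The ranges did not overlap, at 2.92 to 4.51% of all counts in Δchat mice and 4.99 to 8.23% in WT mice. By tissue, the *Igha* share was 1.5 to 2.15% in colon Δchat libraries, against 2.79 to 5.41% in colon WT libraries, and 4.06 to 7.16% in ileum Δchat libraries, against 6.59 to 11.1% in ileum WT libraries. The strains were apart in colon and overlapped in ileum. The share of all immunoglobulin genes was likewise apart in colon and overlapping in ileum, at 3.11 to 4.32% in colon Δchat libraries, against 5.79 to 10.4% in colon WT libraries, and 7.56 to 12.9% in ileum Δchat libraries, against 12.3 to 20.2% in ileum WT libraries. In the comparison over all genes, *Igha* had a fold change of -0.92 ± 0.20 (adjusted p = 0.103), *Igkc*, the kappa constant region, -0.89 ± 0.18 (adjusted p = 0.0967) and *Jchain*, which joins IgA into dimers, -0.87 ± 0.19 (adjusted p = 0.103). None of these 3 passed.

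**Figure D2:**
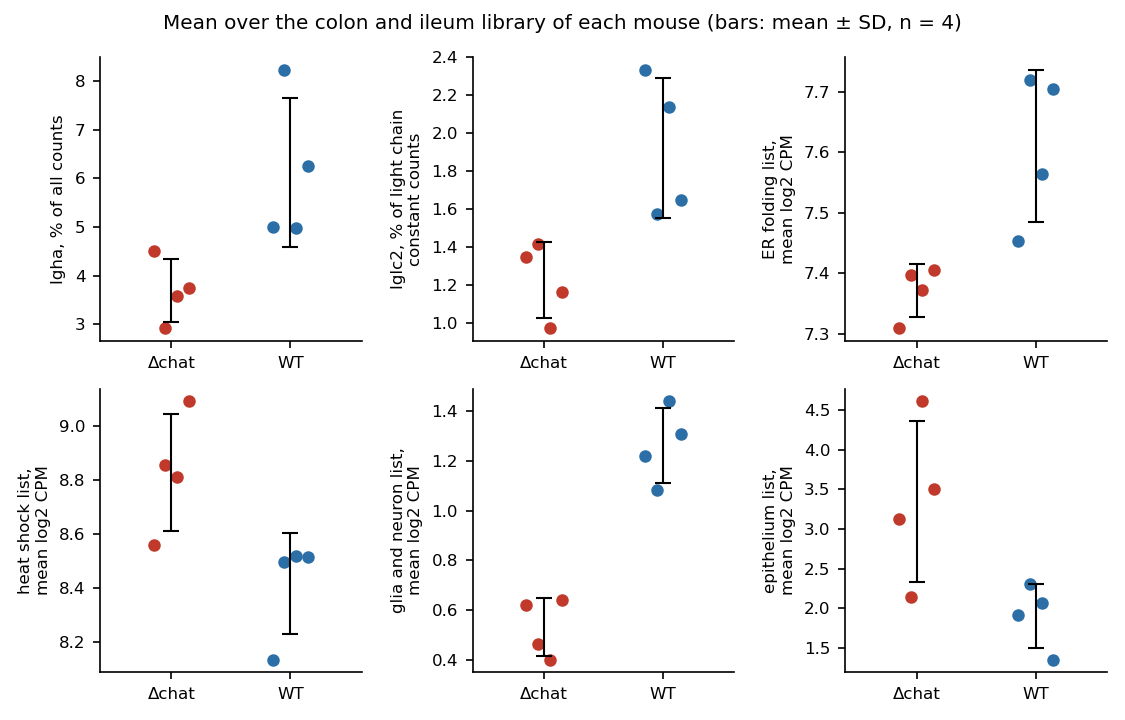
Values per mouse, each the mean of its colon and ileum library, for 4 Δchat mice (left of each panel) and 4 WT mice (right), with the mean and SD as bars: shares of counts in percent, and means of log2 CPM over gene lists. The strains do not overlap for *Igha*, *Iglc2*, the ER, heat shock and glia panels, whereas 1 Δchat mouse lies within the WT range for epithelium.

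Plasma cell genes lay lower with Δchat in both tissues. Of the 30 members of the plasma cell and IgA list, 26 had a negative fold change in both tissues, against 25.6% of all genes, and 22 had an unadjusted p below 0.05, against 6.91% of all genes on the lower side. *Iglc2* was the 1 member called. The list's median was -0.60, with -0.83 in colon and -0.39 in ileum, where the median of all genes was -0.01 and 0.03. Without Δchat mouse 3 it was -0.57.

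*Xbp1*, the factor that drives antibody secretion, stood at 314, 323, 345 and 343 CPM in colon Δchat libraries, against 408, 528, 438 and 532 CPM in colon WT libraries. Its ileum values were 688, 485, 523 and 598 CPM in Δchat libraries, against 778, 1010, 711 and 791 CPM in WT libraries. The strains did not overlap in either tissue, and its fold change of -0.52 ± 0.10 did not pass (adjusted p = 0.0931). The list held 7 members that were lower with no overlap in either tissue, against 0.474% of all genes. Beside *Xbp1* they were *Iglc2*, *Igkc*, *Prdm1*, the factor that commits B cells to secretion (-0.30 ± 0.07), *Ell2*, an elongation factor that favours secreted antibody (-0.36 ± 0.08), *Slamf7*, a surface receptor of plasma cells (-0.43 ± 0.09), and *Ckap4*, which shapes ER sheets (-0.60 ± 0.11). *Eaf2*, a partner of the ELL elongation factors, had -0.85 ± 0.13 (adjusted p = 0.06) and no overlap in colon, and overlapped in ileum.

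**Figure D3:**
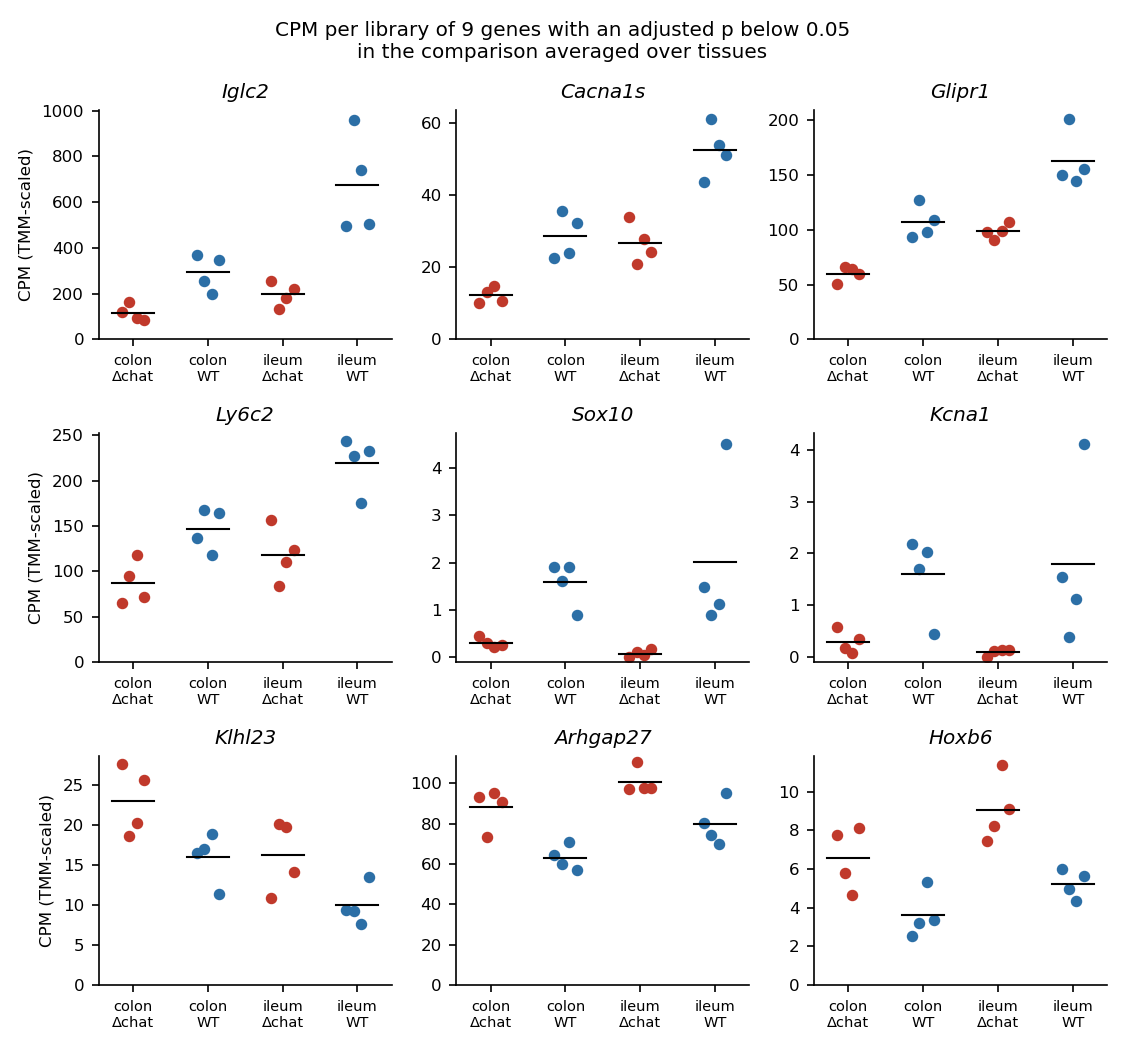
CPM in each library (points; lines are group means, n = 4) of 9 called genes, with the Δchat group left of the WT group of the same tissue. *Iglc2*, *Cacna1s*, *Glipr1*, *Ly6c2* and *Sox10* are lower in every Δchat library than in any WT library of the tissue, and *Arhgap27* is higher; *Kcna1*, *Klhl23* and *Hoxb6* overlap in at least 1 tissue.

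Genes of protein folding in the ER followed the plasma cell list in direction and were smaller in size. Of 36 members of the ER folding and unfolded protein response list, 30 had a negative fold change in both tissues, against 25.6% of all genes, 21 had an unadjusted p below 0.05 on the lower side, against 6.91%, and none did on the higher side. None was called. The median was -0.23, at -0.25 in colon and -0.21 in ileum. For 10 members every Δchat library lay below every WT library in each tissue, against 0.474% of all genes.

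Those 10 members, named for that, cover several steps of ER quality control. *Creld2*, an ER stress protein, stood at 47.6, 68.1, 67.3 and 68.9 CPM in colon Δchat libraries, against 80.6, 95.5, 88.0 and 112 CPM in colon WT libraries. In ileum, the levels were 83.0, 95.1, 92.8 and 95.0 CPM in Δchat libraries, against 115, 148, 122 and 133 CPM in WT libraries. Its fold change was -0.54 ± 0.11 (adjusted p = 0.0931). Among chaperones, *Hsp90b1* (GRP94) had -0.42 ± 0.10, *Sdf2l1*, a cofactor of the chaperone BiP, -0.50 ± 0.10, *Dnajc3*, another BiP cofactor, -0.28 ± 0.07 and *Pdia6*, a disulfide isomerase, -0.41 ± 0.08. In the disposal of misfolded proteins, *Edem1* had -0.56 ± 0.12, *Edem2* -0.61 ± 0.12 and *Sel1l*, a scaffold of the ERAD ubiquitin ligase, -0.51 ± 0.11. *Spcs2* of the signal peptidase had -0.32 ± 0.08 and *Ostc* of the oligosaccharyltransferase -0.24 ± 0.05. Their adjusted p values ran from 0.0931 to 0.130, so none passed. The list's most abundant member did not share this pattern: *Hspa5*, which encodes BiP itself, had -0.03 ± 0.12 (adjusted p = 0.930), with 0.11 in colon and -0.17 in ileum. *Calr*, a lectin chaperone, had -0.14 ± 0.07 (adjusted p = 0.392).

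**Figure D4:**
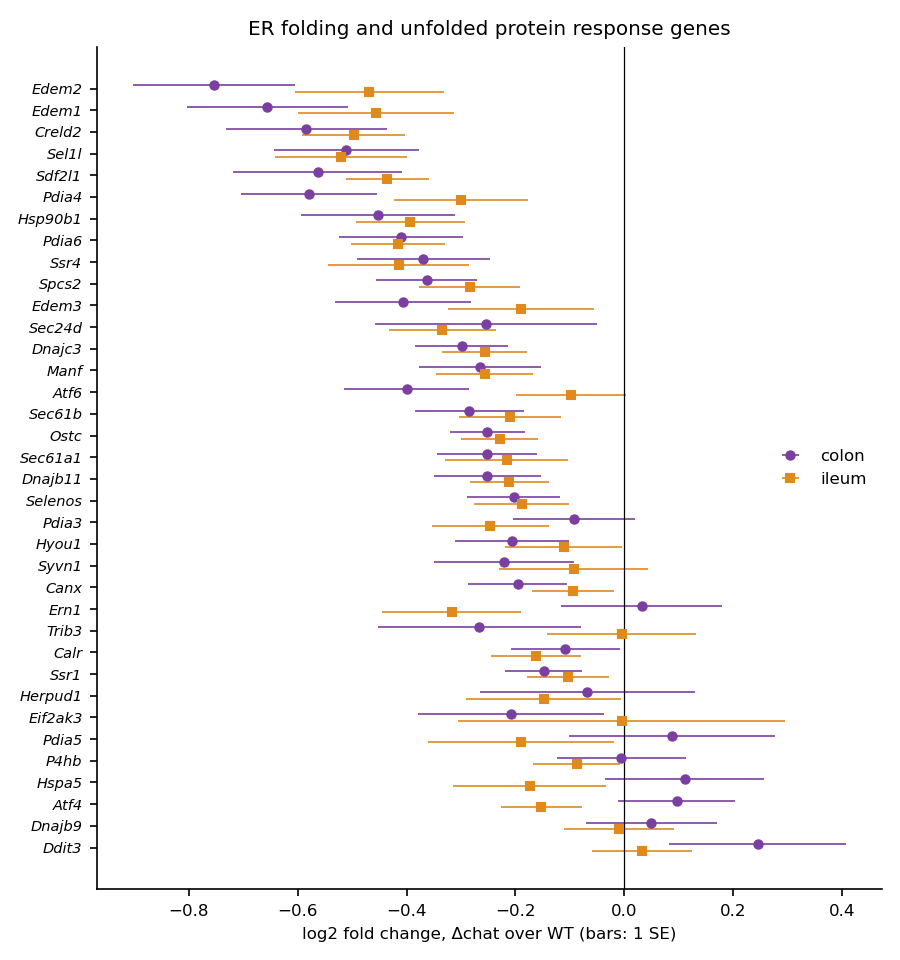
Log2 fold change, Δchat over WT, of the 36 ER folding genes in colon (circles) and ileum (squares), with 1 standard error, ordered by the mean of both. Both symbols lie left of 0 for 30 genes, and *Hspa5* has 0.11 in colon and -0.17 in ileum.

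Many ER chaperone promoters carry the ER stress response element, CCAAT followed by 9 bases of any kind and CCACG, which XBP1 and ATF6 bind together with the factor NF-Y. On either strand of the 250 bases before the start of RefSeq genes (GRCm38.p6), this motif was present in 37 of 32851 promoters (0.113%) and in 8 of the 31 ER list members that have a promoter there (25.8%). Of the tested genes with a promoter it was present in 18 of 11343 (0.159%). Of these 8 members, 4 lay lower with no overlap in either tissue (*Creld2*, *Pdia6*, *Dnajc3* and *Hsp90b1*), against 10 of all 36 list members and 0.474% of all genes. The other 4 did not: *Hspa5* had -0.03, *Calr* -0.14, *Canx* -0.15 and *Syvn1* -0.16. The windows show the element, with its 2 fixed blocks in capitals and 20 bases on each side, in the first 4 and in *Hspa5*. In *Creld2* and the second *Hsp90b1* copy the motif reads as its reverse complement.
Creld2, chr15:88819500-88819558, plus strand: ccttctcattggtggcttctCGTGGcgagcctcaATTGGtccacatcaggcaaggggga
Pdia6, chr12:17266471-17266529, plus strand: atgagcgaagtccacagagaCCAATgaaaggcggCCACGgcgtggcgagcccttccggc
Dnajc3, chr14:118937807-118937865, plus strand: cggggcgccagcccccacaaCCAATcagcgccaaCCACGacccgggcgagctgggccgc
Hsp90b1, chr10:86705618-86705676, minus strand: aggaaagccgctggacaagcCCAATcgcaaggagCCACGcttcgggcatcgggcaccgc
Hsp90b1, chr10:86705513-86705571, minus strand: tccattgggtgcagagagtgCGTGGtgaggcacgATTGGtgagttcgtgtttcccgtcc
Hspa5, chr2:34772005-34772063, plus strand: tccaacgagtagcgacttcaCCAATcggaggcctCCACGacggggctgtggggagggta

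The motif was thus present both in genes with a fold change of -0.54 (*Creld2*) and in one with -0.03 (*Hspa5*), and its presence in these letters shows no binding.

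Enzymes that build and trim the N-glycans of secreted proteins had a smaller shift. Of the 27 members of the list, 19 had a negative fold change in both tissues, against 25.6% of all genes, and 11 an unadjusted p below 0.05 on the lower side, against 6.91%. None had one on the higher side, none was called, and the median was -0.13. *Ganab*, the glucosidase that trims new glycans, had -0.20 ± 0.05 (adjusted p = 0.162), and *Lman1*, a cargo lectin of ER export, -0.33 ± 0.09 (adjusted p = 0.174). These 2 had no overlap in either tissue, against 0.474% of all genes on the lower side. *St6gal1*, a sialyltransferase, had -0.62 ± 0.12 (adjusted p = 0.0931) and *Manea*, an endomannosidase, -0.59 ± 0.11 (adjusted p = 0.0855), with overlap in ileum for both. The most abundant members *Stt3b*, a catalytic subunit of the oligosaccharyltransferase, and *Man1a*, a mannosidase, had -0.25 ± 0.09 and -0.25 ± 0.08, with no overlap in colon and overlap in ileum.

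B cell genes as a list did not keep one direction across tissues. Of 26 members, 12 had a negative fold change in both tissues, against 25.6% of all genes, and 13 had opposite signs. On the lower side 8 had an unadjusted p below 0.05, against 6.91% of all genes, and none was called. All 8 had been put on the list as germinal centre genes. Among those named here, *Rgs13*, which limits signalling by G proteins, had -2.22 ± 0.55 (adjusted p = 0.134), *Nuggc*, a nuclear GTPase, -1.06 ± 0.16 (adjusted p = 0.0632), *Mybl1*, a transcription factor, -1.01 ± 0.20 (adjusted p = 0.0931), *Gcsam* -0.76 ± 0.25 (adjusted p = 0.208) and *Mef2b*, a transcription factor, -0.70 ± 0.29 (adjusted p = 0.307). In colon *Rgs13* had -3.12, *Nuggc* -1.61, *Mybl1* -1.56, *Gcsam* -0.90 and *Mef2b* -1.03, with no overlap of the strains. In ileum the same genes had -1.32, -0.50, -0.47, -0.62 and -0.38, and the strains overlapped for each. *S1pr2*, which confines B cells to the follicle centre, had -0.62 ± 0.11 (adjusted p = 0.0855), with overlap in colon and none in ileum. *Basp1*, a membrane-associated protein, had -0.66 ± 0.10 (adjusted p = 0.0675). It was the list's 1 member with no overlap in either tissue, against 0.474% of all genes on the lower side. The pan-B cell gene *Cd79a* had -0.32 ± 0.24 (adjusted p = 0.593). Without Δchat mouse 3 the list's median was 0.01, against -0.23 with all mice.

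**Figure D5:**
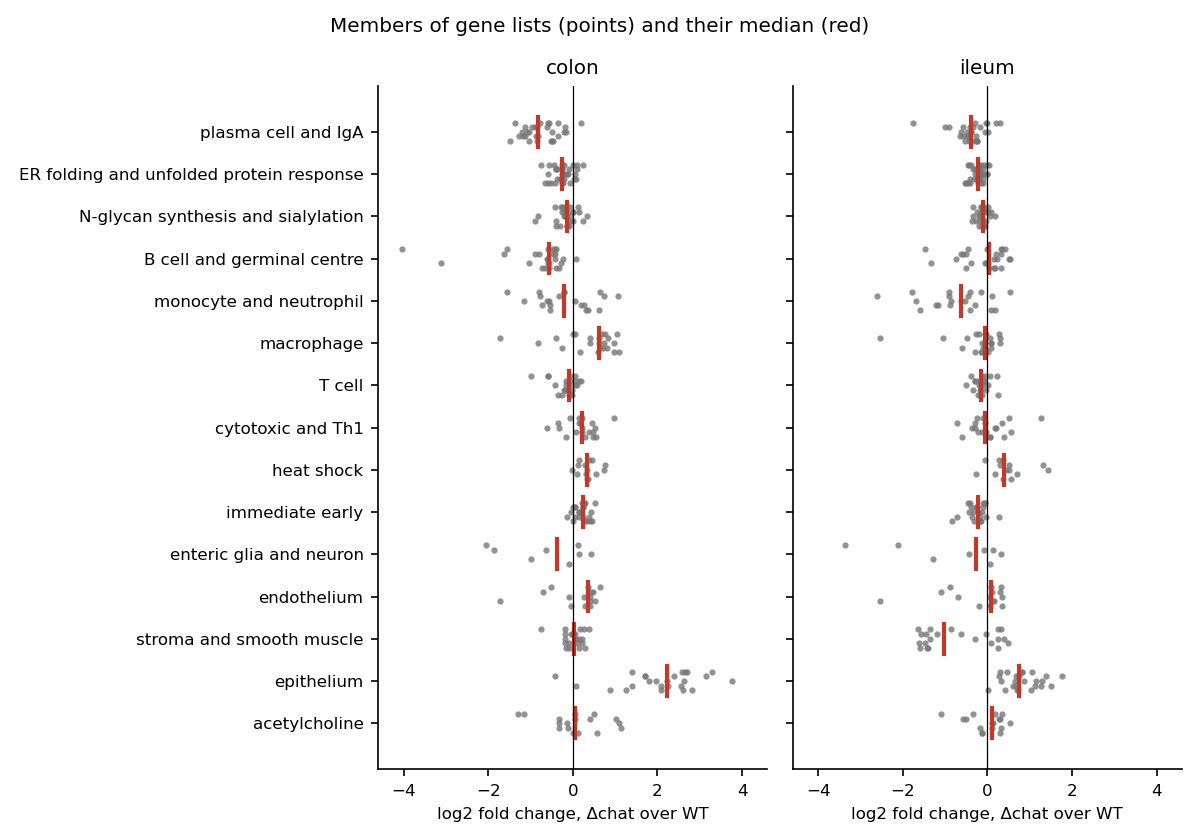
Log2 fold change, Δchat over WT, of the tested members of 15 gene lists (points; red lines are medians) in colon and ileum. The medians of plasma cell and ER folding genes lie left of 0 and that of heat shock genes right of 0 in both panels, whereas macrophage, immediate early and stromal medians differ between the panels.

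Of the called genes with no list of their own, several fell to a like extent in both tissues. *Cacna1s* (ENSMUSG00000026407), a subunit of the L-type calcium channel, stood at 9.97, 13.2, 14.8 and 10.5 CPM in colon Δchat libraries, against 22.4, 35.5, 23.8 and 32.1 CPM in colon WT libraries. The ileum values were 33.9, 20.8, 27.6 and 24.2 CPM in Δchat libraries, against 43.5, 60.8, 53.7 and 51.1 CPM in WT libraries. No library overlapped, and the gene fell by 1.10 ± 0.13 (adjusted p = 0.0252).

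*Glipr1* (ENSMUSG00000056888), a secreted or membrane protein of the CAP family, had 50.2, 66.3, 64.1 and 59.6 CPM in colon Δchat libraries, against 93.1, 127, 97.7 and 109 CPM in colon WT libraries. In ileum it had 98.3, 91.1, 99.2 and 107 CPM in Δchat libraries, against 150, 202, 145 and 156 CPM in WT libraries. It fell by 0.77 ± 0.10 (adjusted p = 0.0445) with no overlap in either tissue. *Tg*, thyroglobulin, fell by 1.14 ± 0.16 (adjusted p = 0.0499), at 2.0 to 2.43 CPM in colon Δchat libraries, against 4.19 to 8.18 CPM in colon WT libraries, and at 4.03 to 7.0 CPM in ileum Δchat libraries, against 10.1 to 12.7 CPM in ileum WT libraries. *Pmepa1*, a TGF-beta target that dampens SMAD signalling, fell by 0.47 ± 0.06 (adjusted p = 0.0499), with overlap in colon.

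*Ly6c2* (ENSMUSG00000022584), the Ly6C antigen of inflammatory monocytes, was the 1 called member of the monocyte and neutrophil list. It had 65.3, 95.0, 118 and 72.0 CPM in colon Δchat libraries, against 137, 168, 118 and 165 CPM in colon WT libraries, where the highest Δchat and the lowest WT library differed by less than the rounding shown. Its ileum values were 157, 83.6, 110 and 123 CPM in Δchat libraries, against 243, 227, 175 and 233 CPM in WT libraries. It fell by 0.84 ± 0.11 (adjusted p = 0.0499). Its near-identical neighbour *Ly6c1*, an endothelial antigen, had a fold change of the other sign, 0.43 ± 0.12 (adjusted p = 0.166), and counts may be split between them. Of the list's 21 tested members, 11 had a negative fold change in both tissues, against 25.6% of all genes. At an unadjusted p below 0.05, 1 was on the higher side, against 8.32% of all genes, and 6 were on the lower, against 6.91%. Among these 6, *Lcn2*, an iron-binding protein of neutrophils and epithelium, had -1.67 ± 0.32 (adjusted p = 0.0931).

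Genes of nervous tissue, low in these preparations, were among those that fell. *Sox10* (ENSMUSG00000033006), the transcription factor that keeps glial identity, had 10, 7, 5 and 5 counts in colon Δchat libraries, against 35, 36, 48 and 16 counts in colon WT libraries. In ileum, the levels were 0, 2, 1 and 4 counts in Δchat libraries, against 25, 16, 25 and 81 counts in WT libraries. No library overlapped, and *Sox10* fell by 2.71 ± 0.26 (adjusted p = 0.0118). *Kcna1*, a potassium channel of axons, fell by 2.54 ± 0.29 (adjusted p = 0.0252), with 0 to 13 counts in Δchat libraries and 7 to 74 counts in WT libraries, and overlapped in colon. Outside nervous tissue, the collagen gene *Col20a1* fell by 0.97 ± 0.13 (adjusted p = 0.0445), at 2.25 to 4.16 CPM in colon Δchat libraries, against 3.50 to 6.75 CPM in colon WT libraries, and at 3.54 to 4.16 CPM in ileum Δchat libraries, against 5.28 to 13 CPM in ileum WT libraries.

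Other glial genes had like values without passing. *Gpr37l1*, a glial receptor, had -2.37 ± 0.35 (adjusted p = 0.06), and *Foxd3*, a neural crest factor, had -1.80 ± 0.30 (adjusted p = 0.083). *Gpr37l1* and *Foxd3* were singled out after their values were seen. The glia and neuron list as a whole did not keep one direction. Of 8 tested members of 15, 3 had a negative fold change in both tissues, against 25.6% of all genes, and 4 had opposite signs. The summed level of all 15 was 27.1 to 32.4 CPM in colon Δchat libraries, against 33.2 to 39.7 CPM in colon WT libraries, and 65.2 to 95.8 CPM in ileum Δchat libraries, against 68.6 to 96.8 CPM in ileum WT libraries. No member was without a count in any of the 4 groups.

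Among the genes that rose, *Klhl23* (ENSMUSG00000042155), of the Kelch-like family, had the smallest adjusted p (0.0252) and rose by 0.61 ± 0.07. It had 27.7, 18.7, 20.3 and 25.7 CPM in colon Δchat libraries, against 16.6, 17.1, 19.0 and 11.4 CPM in colon WT libraries. In the ileum it stood at 10.9, 20.1, 19.8 and 14.1 CPM in Δchat libraries, against 9.35, 9.33, 7.62 and 13.6 CPM in WT libraries. The libraries overlapped in each tissue, and the mouse means did not, at log2 CPM of 4.12 to 4.33 in Δchat mice and 3.60 to 3.67 in WT mice. By tissue, *Klhl23* had 0.53 ± 0.19 in colon and 0.68 ± 0.24 in ileum. The smaller standard error of its average depends on which colon library was averaged with which ileum library.

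*Arhgap27* (ENSMUSG00000034255), a GTPase-activating protein, rose by 0.41 ± 0.05 (adjusted p = 0.0445). It had 93.0, 73.3, 95.2 and 90.8 CPM in colon Δchat libraries, against 64.4, 60, 70.7 and 56.9 CPM in colon WT libraries, and 97.3, 111, 97.6 and 97.4 CPM in ileum Δchat libraries, against 80.5, 74.3, 69.8 and 95.0 CPM in ileum WT libraries. It was the 1 called gene on the higher side with no overlap in either tissue, against 0.243% of all genes. *Hoxb6*, a homeobox factor, rose by 0.82 ± 0.11 (adjusted p = 0.0499), at 4.67 to 8.12 CPM in colon Δchat libraries, against 2.52 to 5.31 CPM in colon WT libraries, and at 7.45 to 11.4 CPM in ileum Δchat libraries, against 4.35 to 6.01 CPM in ileum WT libraries. *Rgs4*, which shortens signalling by G protein-coupled receptors, rose by 0.62 ± 0.09 (adjusted p = 0.0499) and overlapped in each tissue.

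Of the 20 genes named by smallest p, the 9 that did not pass had adjusted p values of 0.06 to 0.083. Lower with Δchat were *Eaf2*, *Nuggc* and *Basp1*, given above, *Chid1*, a chitinase-domain protein (-0.61 ± 0.09), and *Adam11*, a neural member of the ADAM family (-1.26 ± 0.20). Higher were *Slc26a10*, of an anion transporter family (0.69 ± 0.11), *Phf21b*, a PHD finger protein (0.67 ± 0.10), *Pdgfb*, the growth factor by which endothelium recruits pericytes (0.57 ± 0.09), and *Slc36a1*, an amino acid transporter of lysosomes (0.50 ± 0.08). Of these 9, *Chid1*, *Basp1* and *Slc26a10* had no overlap in either tissue, against 0.717% of all genes. The 9 were picked by smallest p on the same libraries, so this is a description only.

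Heat shock genes lay on the higher side in both tissues. Of the 14 members, 11 had a positive fold change in both tissues, against 29.3% of all genes, and 9 an unadjusted p below 0.05 on the higher side, against 8.32%, with none called and a median of 0.36 (0.33 in colon, 0.40 in ileum). *Hspa1a*, the inducible HSP70, had 2540, 1630, 1910 and 5380 CPM in colon Δchat libraries, against 996, 1360, 2170 and 1700 CPM in colon WT libraries. The ileum values were 2340, 5200, 4120 and 3350 CPM in Δchat libraries, against 1130, 1790, 1380 and 1540 CPM in WT libraries. The strains overlapped in colon and were apart in ileum, with a fold change of 1.05 ± 0.20 (adjusted p = 0.0931). Its near-identical copy *Hspa1b* had 1.09 ± 0.21, and counts may be split between them. *Hspd1*, the mitochondrial HSP60, had 0.40 ± 0.08 (adjusted p = 0.0931). It was the 1 member with no overlap in either tissue, against 0.243% of all genes on the higher side. *Hspa8* had 0.35 ± 0.11, *Hsp90aa1* 0.45 ± 0.12 and *Hsp90ab1* 0.22 ± 0.08, all constitutive or inducible cytosolic chaperones. Of 25 immediate early genes, none had an unadjusted p below 0.05 and 23 had opposite signs in the tissues; without Δchat mouse 3, 2 had such a p on the higher side and 2 on the lower.

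Endothelial markers went both ways. Of 15 endothelial markers, 10 had a positive and 5 a negative fold change in both tissues, against 29.3% and 25.6% of all genes. At an unadjusted p below 0.05, 7 were on the higher side and 2 on the lower, against 8.32% and 6.91% of all genes. None was called. *Plvap*, of the fenestrae of capillaries, had 0.48 ± 0.13 (adjusted p = 0.166), *Egfl7* 0.34 ± 0.11, *Emcn* 0.38 ± 0.14 and the pan-endothelial *Pecam1* 0.18 ± 0.09. The 2 on the lower side are those that lymphatic vessels use: *Lyve1*, a hyaluronan receptor also found on some macrophages, with -2.13 ± 0.54 (adjusted p = 0.154), and *Prox1*, the lymphatic master factor, with -0.90 ± 0.30 (adjusted p = 0.223). *Lyve1* stood at 6.18, 33.6, 51.3 and 19.8 CPM in colon Δchat libraries, against 45.4, 120, 88.1 and 53.7 CPM in colon WT libraries, and at 3.40, 14.1, 17.6 and 16.1 CPM in ileum Δchat libraries, against 83.1, 40.5, 39.3 and 122 CPM in ileum WT libraries. The strains overlapped in colon and not in ileum.

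Among cytotoxic and Th1 genes, 4 of 20 had an unadjusted p below 0.05 on the higher side, against 8.32% of all genes. On the lower side 1 had one, against 6.91%, and none was called. Without Δchat mouse 3 the number on the higher side was 7. *Ifng*, the Th1 cytokine interferon gamma, stood at 18.0, 9.84, 8.97 and 13.6 CPM in colon Δchat libraries, against 3.39, 6.87, 7.51 and 8.07 CPM in colon WT libraries. In ileum it had 20.5, 33.8, 16.1 and 23.9 CPM in Δchat libraries, against 6.79, 15.7, 8.07 and 9.12 CPM in WT libraries. Every Δchat library lay above every WT library of its tissue, and the fold change of 1.12 ± 0.24 did not pass (adjusted p = 0.103). *Tbx21*, the T-bet factor that drives *Ifng*, had 0.48 ± 0.12 (adjusted p = 0.136), while the granule protease gene *Gzma* had -0.48 ± 0.12 (adjusted p = 0.13). In the interferon response list, 9 of 29 had a positive and 9 a negative fold change in both tissues, against 29.3% and 25.6% of all genes. At an unadjusted p below 0.05, 2 were on the higher side and 4 on the lower, against 8.32% and 6.91% of all genes. *Bst2*, tetherin, had -0.52 ± 0.09 (adjusted p = 0.0855). *Ciart*, a repressor of the circadian clock, had 0.86 ± 0.15 (adjusted p = 0.0855) with no overlap in either tissue, at 26.4 to 47.3 CPM in colon Δchat libraries, against 19.4 to 25.4 CPM in colon WT libraries, and at 36.2 to 62.8 CPM in ileum Δchat libraries, against 19.0 to 23.5 CPM in ileum WT libraries. It was 1 of 2 clock genes out of 21 with an unadjusted p below 0.05 on the higher side, a share near that of all genes (8.32%), and 4 had one without Δchat mouse 3.

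None of the host's acetylcholine genes was called. Of the 32 in the list 17 were expressed highly enough to be tested. In both tissues 7 had a positive and 4 a negative fold change, against 29.3% and 25.6% of all genes. At an unadjusted p below 0.05, 1 was on the higher side and 3 on the lower, against 8.32% and 6.91% of all genes. These counts became 3 and 2 without Δchat mouse 3. *Chrm2*, a muscarinic receptor, had 0.73 ± 0.23 (adjusted p = 0.205), and *Chrnb1*, a nicotinic subunit, -0.24 ± 0.08 (adjusted p = 0.211). *Chrnb4* had -1.18 ± 0.43 (adjusted p = 0.252), with 2 to 31 counts in Δchat libraries and 18 to 39 counts in WT libraries. *Chrm4* had -0.74 ± 0.31 (adjusted p = 0.307) at under 1 CPM. *Slc44a2*, a choline transporter, had 0.20 ± 0.10 (adjusted p = 0.405).

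Members of the remaining lists are given by their counts, against 8.32% of all genes with an unadjusted p below 0.05 on the higher side and 6.91% on the lower. A negative fold change in both tissues was found for 25.6% of all genes. T cell genes had 13 of 23 with a negative fold change in both tissues and 2 with an unadjusted p below 0.05, both on the lower side. Macrophage genes had a median of 0.62 in colon and -0.06 in ileum, and 11 of 23 had opposite signs, with 1 member on the higher and 3 on the lower side at an unadjusted p below 0.05. Stromal genes had a median of 0.03 in colon, -1.03 in ileum and -0.67 over both, with 1 of 22 on the higher and 4 on the lower side at an unadjusted p below 0.05. Without Δchat mouse 3 the number on the lower side was 13. Of the 12 MHC class II presentation genes 11 had opposite signs, and none had an unadjusted p below 0.05. Cell cycle genes had 15 of 30 with a negative fold change in both tissues and 4 with an unadjusted p below 0.05 on the lower side, which became 8 without Δchat mouse 3. Among 27 inflammatory cytokine and NF-kB genes, 2 were at an unadjusted p below 0.05 on the higher side and 6 on the lower, of which *Il1a* was called. Genes of pattern recognition had 4 of 26 on the higher side and none on the lower. Signals that support IgA cells had 1 of 23 higher and 5 lower, dendritic cell genes 2 of 18 higher and 2 lower, regulatory T, Th17 and ILC3 genes 2 of 19 higher and 2 lower, and eosinophil, mast cell and basophil genes 3 of 20 higher and 4 lower, with *Alox15* called. Of the exocrine pancreas list 2 genes were tested, 1 of them at an unadjusted p below 0.05 on the higher side.

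How many list members were called varied with the test. By edgeR on counts summed per mouse, which called 14 genes, no member of the ER folding, N-glycan, B cell, heat shock, epithelial, endothelial or cytotoxic and Th1 lists was called. The tests over 16 libraries by edgeR and DESeq2 take the 2 libraries of a mouse as independent samples, 16 from 8 mice. In limma-voom the mouse was a random block, but the within-mouse correlation was -0.0173, so libraries were treated nearly as independent there too. The counts of all 3 are alternatives and not the basis of any call here. These tests, which called 166 genes by edgeR, 659 by limma-voom and 761 by DESeq2, called 12, 16 and 21 ER folding genes and 14, 16 and 19 plasma cell genes, all on the lower side. They called 3, 7 and 9 N-glycan genes and 3, 6 and 7 B cell genes, also all lower, and 3, 4 and 5 heat shock genes, all higher. Epithelial genes gave 0, 0 and 2 calls on the higher side and endothelial genes 0, 2 and 2 on the lower. Cytotoxic and Th1 genes gave 1, 2 and 2 calls on the higher side, DESeq2 adding 1 on the lower, and limma-voom called 1 acetylcholine gene as higher. With the epithelial level as a covariate and the mouse means as before, 387 genes were called, among them 1 ER folding gene, 3 plasma cell genes, 2 B cell genes and 9 stromal genes, all lower, and 1 heat shock gene, which was higher. In that fit 1 acetylcholine gene and 2 interferon response genes were called lower and 2 MHC class II and 2 pattern recognition genes higher; the other lists had at most 2 calls on either side.

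In contrast to the genes above, *Il1a* and *Alox15* were called with tissues of opposite sign. *Il1a*, a cytokine of the IL-1 family, had -0.87 ± 0.10 when averaged (adjusted p = 0.0252), made up of 0.32 ± 0.25 in colon and -2.06 ± 0.22 in ileum. *Alox15*, a lipoxygenase, had -1.02 ± 0.14 (adjusted p = 0.0499), made up of 0.95 ± 0.39 in colon and -2.99 ± 0.33 in ileum. Neither is described as shared, since the signs differ, but the difference between tissues did not pass for either (adjusted p = 0.168 and 0.158). The gene called in colon alone, *Retnla*, a resistin-like protein of alternatively activated macrophages, had 1.68 ± 0.14 there (adjusted p = 0.0091) and -1.82 ± 0.65 in ileum, so its average was -0.07 ± 0.30. The 3 called in ileum were *Il1a*, *Alox15* and *Wnt11*. Across all genes, 302 (1.99%) had an unadjusted p below 0.05 in each tissue with the same direction, 120 higher (0.79%) and 182 lower (1.2%), and 31 (0.204%) with opposite directions. Colon and ileum come from the same mice, so these counts are not from independent samples.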

How the data were processed

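The authors deposited a table of estimated counts per gene for 16 libraries. The submitters' processing notes name cutadapt 5.0, Salmon 1.4.0 and the build GRCm39. Between 34.8 and 40.7% of the deposited values were not whole, and they were rounded here. Of 35647 genes, the 15198 kept by edgeR's filterByExpr (4 groups) were tested. Counts were scaled by TMM and turned into log2 CPM with a prior count of 2 (edgeR 4.0.16, R 4.3.3), averaged per mouse and compared with limma 3.58.1 (trend, robust). A count model has no term for a mean over 2 libraries, so edgeR and DESeq2 1.42.0 were alternatives, as were other scalings, filters, covariates and single mice left out. Unadjusted p values within a tissue come from the same method.

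A colon and an ileum library that share strain and replicate number were averaged as one mouse, since 4 mice per group gave both tissues. The labels carry the shared number and no other mouse identifier, so this match was assumed. The averaged fold change of a gene does not depend on the match, but its standard error and adjusted p do. The correlation of the deviations of the matched libraries from their group means ran from -0.18 to 0.274. Numbers do not pair mice across strains. No 2 libraries were copies.

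Genes were named by a rule: the 20 smallest p with at least 5 CPM and the same sign in both tissues, without antibody or T cell receptor segments and unnamed genes. For each list, the called or most abundant members were added. Members of lists with no overlap, and called genes outside the rule (*Sox10*, *Kcna1*, *Iglv2*, *Igkv3-7*, *Il1a*, *Alox15*), were named after their values were seen, as were *Rgs13*, *St6gal1*, *Manea*, *Lyve1*, *Prox1*, *Ifng*, *Tbx21*, *Gzma* and *Lcn2*. The comparison, the 26 gene lists and the rule were chosen with earlier results of these data known. The labels do not say that libraries were made in batches. Totals of 15.9 to 23.6 M counts limit precision for genes of few counts. Some genes of the lists are counted but not reported by name here.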

Additional observations from a re-analysis of the deposited data

Results flagged for a closer look

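Of 214 groups of 4 mice checked (95 genes and 12 measures in each strain), 16 held 1 mouse far from the other 3 by Dixon's ratio, where chance gives about 1 in 20. WT mouse 2 was high, in mean log2 CPM over both tissues, for *Eaf2* (5.13), *Chid1* (4.8), *Slamf7* (6.75), *Ckap4* (6.73) and *Ostc* (6.01), and low for *Pecam1* (9.21). Δchat mouse 1 was low for *Hsp90b1* (10.2), *Creld2* (5.98) and *Sel1l* (7.28). Δchat mouse 2 was low for *Phf21b* (2.45) and high for *Pdgfb* (6.33) and *Tnfrsf9* (6.90), Δchat mouse 3 was low for *Ifng* (3.60), and WT mouse 4 was high for *Iglv2* (7.97). WT mouse 1 was high in the share of *Iglc1* among light chain constant counts (3.30%) and low in the heat shock mean (8.14 log2 CPM).

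The strain effect differed between tissues for 3 genes, by the within-mouse difference of colon and ileum (limma, adjusted over all genes). *Wnt11*, a secreted WNT ligand, had 0.29 in colon and -1.59 in ileum, a difference of 1.89 ± 0.20 (adjusted p = 0.0219). *Igkv1-135*, a kappa variable segment, had -0.10 and -2.64, a difference of 2.54 (adjusted p = 0.00765). *Tnfrsf9*, the costimulatory receptor 4-1BB, had 0.49 and -1.03, a difference of 1.53 (adjusted p = 0.00765), and Δchat mouse 2 stood at 104 CPM in colon and 137 CPM in ileum while the other 3 Δchat mice stood at 19.7 to 25.2 and 22.4 to 27.5 CPM.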

How the results depend on the processing

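Over 105 gene results and their alternatives, 1655 of 2053 values kept their direction and side of the threshold, 205 lost and 178 gained the call, and 15 turned sign. *Iglc2* was called in all 19 of its alternatives, at -1.65 to -1.39. The averaged count of 17 calls became 7 with RLE size factors (7 of the 17 kept), 6 without a filter, 11 with a stricter filter, 5 without immunoglobulin genes, 387 with the epithelial covariate (11 kept), and, over 16 libraries, 166 by edgeR, 761 by DESeq2 and 659 by limma-voom with the mouse as a random block; it was 14 by edgeR on counts summed per mouse, with 9 of the 17 kept. The mice share only a number across strains (correlations of -0.0929 to 0.157, 1 of 4 mice closest to its own number); with the replicate block the averaged count was 1, that of colon 0, of ileum 1 and of the difference 0. The colon count of 1 became 0 without a filter and 2 with the epithelial covariate. The ileum count of 3 became 0 without a filter, with the stricter filter, without robust fitting and with the epithelial covariate. With single mice left out, the counts ran from 1 to 92 averaged, 0 to 3 in colon, 0 to 324 in ileum, 2 to 14 for the difference, 164 to 317 for genes with p below 0.05 in each tissue and 175 to 288 for non-overlapping genes. The last was 109 with all mice. Leaving a mouse out can only make non-overlap easier for a given gene, so that rise shows no dependence on single mice. The sign turned for *Hspa5* with the epithelial covariate (0.064) and without WT 4 (0.0047), and single mice left out gave -0.112 to 0.052; for *Vil1* (-0.013) and *Muc2* (-0.12) with that covariate, which is made from them; for *Tnfrsf9* with it (0.83), by edgeR (0.15) and DESeq2 (0.14); and for the averaged *Retnla* with it (0.26), with single mice left out (-0.357 to 0.186), by edgeR on libraries (0.27) or sums (1.04), DESeq2 (0.19) and voom (0.84). The causes were not tested. Genes of few counts, such as *Sox10* and *Kcna1*, are limited by depth.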
